A study of Mus musculus with 6 samples.

Results

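Costimulatory and checkpoint ligands are the surface proteins through which antigen-presenting cells encourage or restrain T cells. The genes described are Cd80, Cd83, Cd86, Cd274, Pdcd1lg2, Icosl, Havcr2 and Cd200r1, chosen by name: every non-control probe that the array assigns to one of them was taken. These are 8 of the 16365 genes that could be tested, and they were read by 10 probes. All 8 passed the filter on dim probes, meaning that the scanner program called each clearly brighter than background throughout heart, throughout spleen or both. They were in fact well above background on every array by their representative probe.

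Heart samples (heart 1, heart 2 and heart 4) are myeloid cells of the infarcted left ventricle, and spleen samples (spleen 1, spleen 2 and spleen 4) are myeloid cells of the spleen. Both were taken on day 3 after acute myocardial infarction from C57BL/6N wild-type mice, so the 3 spleen samples also come from infarcted animals and no uninjured animal is part of the comparison. The flow cytometry sort kept cells with high CD45 and CD11b and low staining for Ly6G, a neutrophil antigen, for CD45R/B220 of B cells, for CD90.2/Thy-1.2 of T cells, and for the natural killer cell antigens NK-1.1 and CD49b/DX5. Each ventricle and each spleen was handled on its own, each sample was hybridised to 1 single-colour array, and the ages and sex of the mice and the operation are not given in the sources used here.

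A T cell that meets its antigen also reads a second set of signals from the presenting cell. CD80 and CD86 bind CD28, which promotes activation, and CTLA-4, which restrains it. PD-L1 (Cd274) and PD-L2 (Pdcd1lg2) bind the inhibitory receptor PD-1, and ICOS ligand (Icosl) binds ICOS. CD83 is a surface marker of mature dendritic cells and activated B cells, while TIM-3 (Havcr2) and CD200R1 are receptors that myeloid cells themselves carry and that dampen their responses. After infarction, antigen-presenting myeloid cells and CD4+ T cells both gather in the injured heart and the lymph nodes that drain it.

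For 2 of the genes the array holds a pair of probes, and their sequences are shown because the probes of Cd80 gave different results and those of Pdcd1lg2 nearly share a target. The Cd80 probes lie 7369 bases apart on the plus strand in mm9, at chr16:38479343-38479402 and chr16:38486772-38486831, and the scanner files place them from bases 872 and 1457 of the same Cd80 transcript. The first, A_66_P130432, is given whole and the second, A_55_P2001218, by its first 30 bases, both 5′ to 3′ with no capitals:
Cd80, A_66_P130432: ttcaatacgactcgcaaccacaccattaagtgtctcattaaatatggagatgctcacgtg
Cd80, A_55_P2001218: aaaggagaggtgcctagtcttactgcaact
The Pdcd1lg2 probes, A_55_P2187141 at chr19:29545473-29545532 and A_55_P2122075 at chr19:29545470-29545529 (plus strand, mm9), overlap by 57 bases and are identical at 55 of them. Bases 28 to 57 of A_55_P2187141 and the same stretch of A_55_P2122075 follow, 5′ to 3′, with capitals at the bases that differ, T50C and A55G, counted from the 5′ base of A_55_P2187141 and given with its base first:
Pdcd1lg2, A_55_P2187141: tggaagcatttaagcaacacgtTaagtAcc
Pdcd1lg2, A_55_P2122075: tggaagcatttaagcaacacgtCaagtGcc

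Levels are log2 of the processed signal minus the 75th percentile of the same array, so 0 is the signal at that percentile, and differences are heart minus spleen on that log2 scale. A gene was represented by its brightest tested probe and is said to have risen or fallen where limma's Benjamini-Hochberg adjusted p over all 16365 genes was under 0.05. Arrays had between 52.8% and 63.6% of probes well above background, and no spot was saturated. Arrays of the heart correlated with each other at 0.991 to 0.994 and those of the spleen at 0.937 to 0.96, across probes, and the median SD of a gene was 0.14 in heart and 0.41 in spleen. The number of arrays limits the precision. Whether samples of the same number share an animal is not stated.

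Spleen 1 stood apart in markers of lymphocytes, which the sort was meant to deplete. The summed signal of 10 B cell genes, relative to the 75th percentile, was 5.17, 5.75 and 6.17 in heart 1, 2 and 4, against 140.2, 6.99 and 5.36 in spleen 1, 2 and 4. Of 10 T and natural killer cell genes, 8 had a usable value on all arrays, and 4 were well above background on all of them. The sum of the 8 was 7.53, 8.24 and 6.37 in heart and 87.3, 8.68 and 10.4 in spleen. The sum of 10 markers of activated dendritic cells was 4.22, 5.48 and 5.04 in heart and 31.4, 4.24 and 3.89 in spleen, although the defining genes Ccl22 and Il12b were well above background on no array. In spleen 1 nearly all of that sum came from Ccr7, Il4i1 and Tmem123 (log2 levels 3.85, 3.40 and 2.58). Which cells carried their message was not tested. For each of these lists, spleen 1 lay far above the other arrays of both tissues. Because CD80, CD83, CD86, PD-L2 and ICOS ligand are also made by B cells and activated dendritic cells, the differences of the 8 genes are given with and without spleen 1. In these bulk samples, fewer cells of a type and less RNA per cell cannot be told apart.

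**Figure D1:**
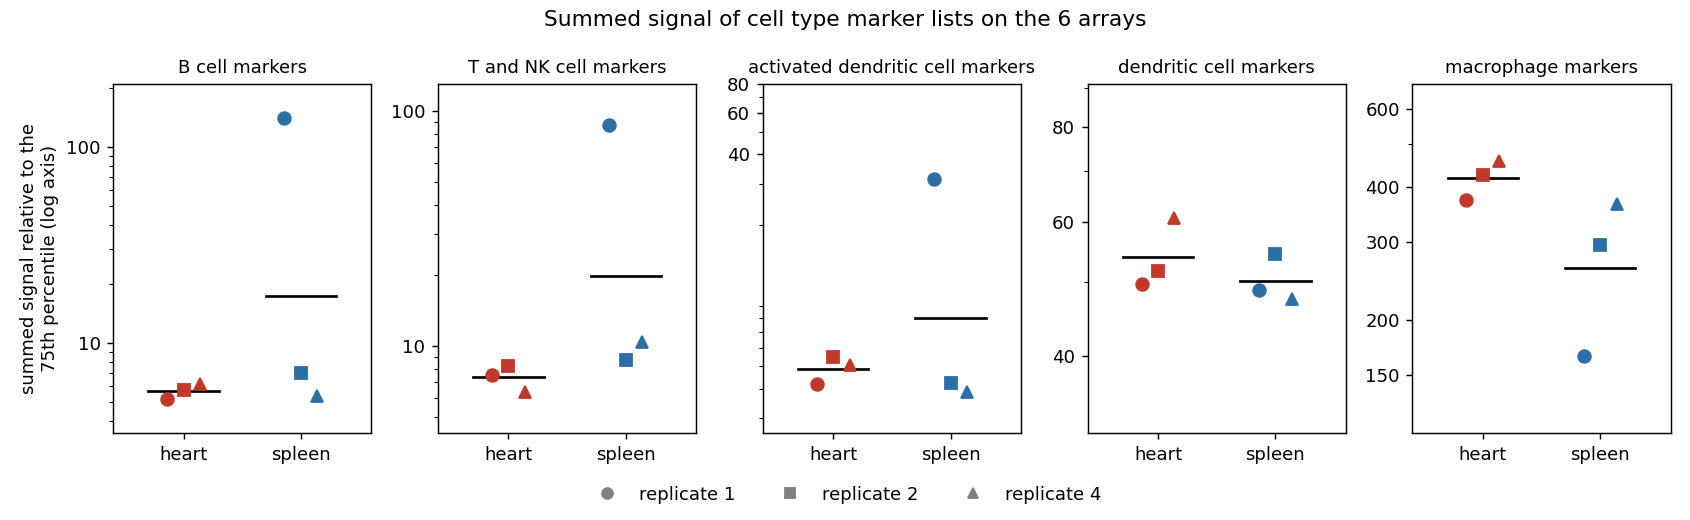
Summed signal of 5 lists of cell type markers on each array, relative to the array's 75th percentile (log axis), with heart on the left and spleen on the right of each panel; points are arrays and lines are geometric means. Spleen 1 (circle) reaches 140.2 for B cell markers and 31.4 for activated dendritic cell markers, while macrophage markers are at 374.8 to 457.8 in heart and 165.7 to 366.7 in spleen.

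Of the 8 genes, 3 rose in heart myeloid cells, Cd86, Havcr2 and Cd200r1, and 0 fell by limma's adjusted p; at an unadjusted p under 0.05 the numbers were 4 and 0. Over all tested genes 15.4% changed, 8.88% upward and 6.52% downward, and at the unadjusted threshold 17.9% were higher and 13.7% lower. The other 5 genes, Cd80, Cd83, Cd274, Pdcd1lg2 and Icosl, did not pass on their representative probe. Of all 8, 6 had the higher mean in heart, as did 58.0% of all genes tested. The median difference over the 8 was 1.47, beside 0.10 over all genes tested. For 4 of the 8 the heart arrays all lay above the spleen arrays, as they did for 24.1% of all genes (16.6% lay the other way, 40.7% either way).

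**Figure D2:**
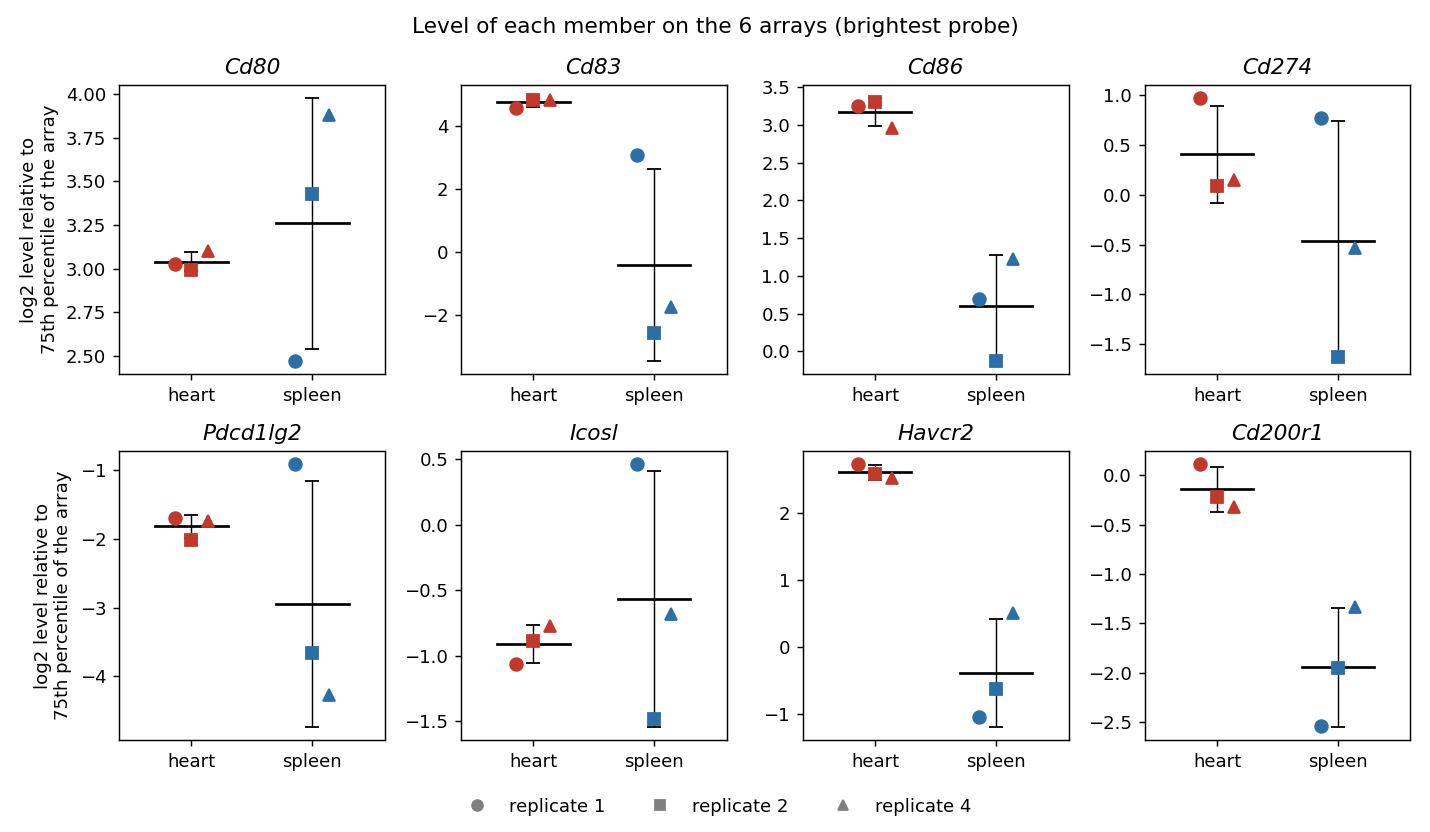
Level of each of the 8 genes on the 6 arrays by its brightest probe (log2 relative to the array's 75th percentile, a separate scale in each panel), heart on the left and spleen on the right; the bar is the mean and the whisker the SD over 3 arrays. Cd83, Cd86, Havcr2 and Cd200r1 have every heart array above every spleen array, and the spleen arrays of Cd83 span 5.61 log2 units.

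Cd86, the ligand of CD28 and CTLA-4 that resting monocytes and dendritic cells already carry, was brighter on every heart array. Its processed signal was 14398, 14358 and 13153 intensity units in heart 1, 2 and 4, against 3031, 1455 and 3882 in spleen 1, 2 and 4. No spleen array came near the dimmest heart array, and the heart arrays were close to each other. The level averaged 3.17 ± 0.18 in heart and 0.60 ± 0.68 in spleen (SD, n = 3 each). The difference was 2.58 ± 0.35 (SE), or 5.96-fold, with a 95% interval from 1.72 to 3.43 and limma's adjusted p = 0.00868. Without spleen 1 it was 2.63 with an adjusted p = 0.0166, so the rise did not rest on that array. Leaving out heart 1 or heart 2 kept the size (2.54 and 2.51) but gave adjusted p-values of 0.0511 and 0.0512.

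Cd80, the partner of Cd86 with the same receptors, gave different results on its probes. The brightest probe, A_55_P2001218, had 12328, 11565 and 14440 intensity units in heart 1, 2 and 4, against 10367, 17123 and 24371 in spleen 1, 2 and 4. The tissues overlapped, with spleen arrays on both sides of the hearts. The difference was −0.22 ± 0.36 (limma's adjusted p = 0.723), with a 95% interval from −1.08 to 0.65, and it was −0.61 without spleen 1 and 0.09 without spleen 4. The probe therefore leaves a modest change in either direction within its interval.

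The other Cd80 probe, A_66_P130432, whose 60 bases are printed above, separated the tissues widely. Its signal was 3665, 3284 and 3676 intensity units in heart, against 313.4, 346.7 and 301.2 in spleen. Replicates lay close together in both tissues, spleen 1 included, and were well above background on all 6 arrays. At the probe level the difference was 3.61 ± 0.18 with limma's adjusted p = 0.00039 over the 21801 tested probes, of which 8.75% rose. The level averaged 1.19 ± 0.08 in heart and −2.41 ± 0.19 in spleen (SD, n = 3 each).

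The disagreement between the Cd80 probes was itself tested. The gap between the probes, second minus brightest, was −1.85 in heart and −5.67 in spleen, a difference of 3.82 ± 0.33 with limma's adjusted p = 0.0125 over the 3327 genes with more than 1 tested probe. Among those genes the gap differed between tissues in 66, or 1.98%, and Cd80 was 17th by size. In 139 genes (4.18%) the brightest probe did not pass while the second rose. The fit of the gap was chosen after the values were seen. Which of the probes follows the amount of Cd80 message was not tested, so the change of Cd80 is not settled here.

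**Figure D3:**
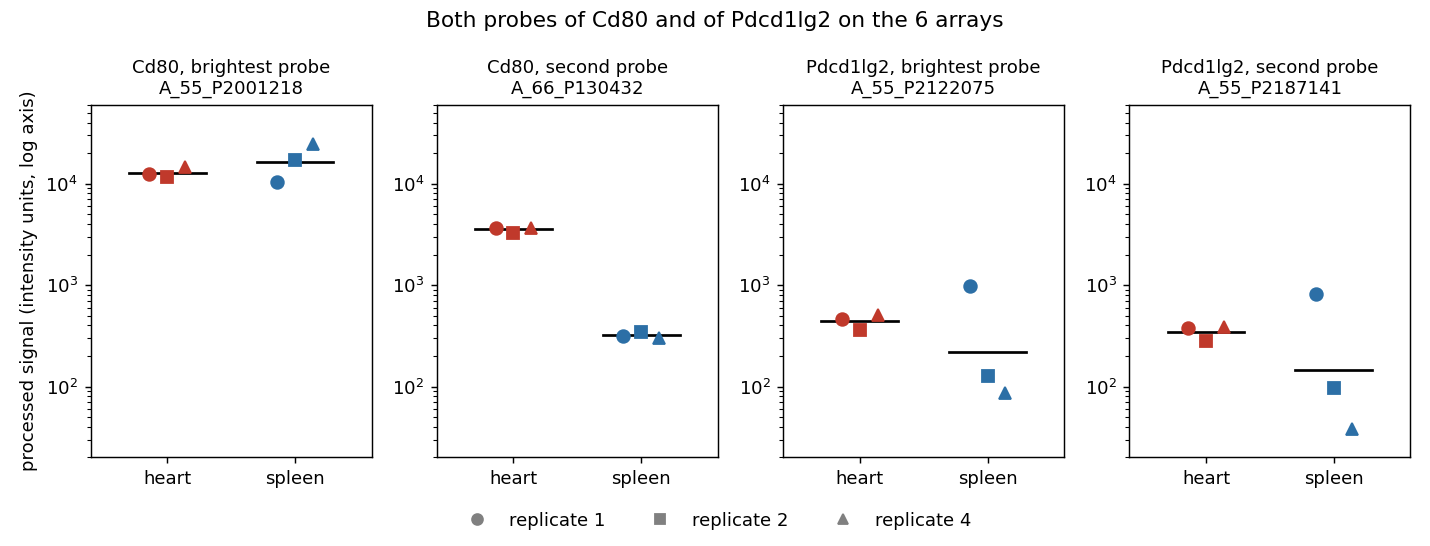
Processed signal (intensity units, log axis) of both probes of Cd80 and of Pdcd1lg2 on the 6 arrays, heart on the left and spleen on the right; lines are geometric means over 3 arrays. The Cd80 probes part, with overlapping tissues on the brightest probe and 3284 to 3676 in heart against 301.2 to 346.7 in spleen on the second, whereas both Pdcd1lg2 probes show the same order of arrays within spleen.

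Cd274, which encodes PD-L1, did not pass. Its signal was 2958, 1546 and 1873 intensity units in heart 1, 2 and 4, against 3196, 514 and 1143 in spleen 1, 2 and 4. On the scaled levels heart 1 (0.97) and spleen 1 (0.77) were highest, and the other spleen arrays lay below every heart. The level averaged 0.40 ± 0.49 in heart and −0.46 ± 1.20 in spleen (SD, n = 3 each), a difference of 0.87 ± 0.61 with limma's adjusted p = 0.381 and a 95% interval from −0.59 to 2.33. Without spleen 1 the difference was 1.49, and the adjusted p of 0.0745 still missed the threshold.

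Pdcd1lg2, the PD-L2 gene next to Cd274 on chromosome 19, also had spleens on both sides of the hearts. Its brightest probe had 464.7, 359.6 and 502.1 intensity units in heart 1, 2 and 4, against 990.2, 126.5 and 85.9 in spleen 1, 2 and 4. Spleen 1 lay above every heart and the other spleens below every heart. The level averaged −1.82 ± 0.17 in heart and −2.95 ± 1.78 in spleen (SD, n = 3 each), and the difference of 1.13 ± 0.83 did not pass (limma's adjusted p = 0.403, 95% interval −0.85 to 3.11). Without spleen 1 it was 2.14 with an adjusted p = 0.00699. Leaving out spleen 2 or spleen 4 instead gave 0.77 and 0.47, with limma's adjusted p = 0.634 and 0.691. The part of the lymphocyte and activated dendritic cell markers of spleen 1 in the values of Pdcd1lg2 was not tested.

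The second Pdcd1lg2 probe gave 373.6, 282.3 and 387.7 intensity units in heart and 813.1, 96.2 and 38.4 in spleen. On spleen 4 it was not well above background. Its difference was 1.39 ± 0.99 at the probe level (limma's adjusted p = 0.392), or 1.31 with spleen 4 held at the floor. The gap between the Pdcd1lg2 probes did not pass the test that Cd80 passed (0.27 ± 0.25, adjusted p = 0.74).

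Icosl, the ligand of ICOS, which follicular helper and regulatory T cells carry, also did not pass. Its signal was 722.7, 785 and 985.7 intensity units in heart 1, 2 and 4, against 2581, 569.4 and 1035 in spleen 1, 2 and 4. The tissues overlapped and spleen 1 was the brightest array. The level averaged −0.91 ± 0.15 in heart and −0.57 ± 0.98 in spleen (SD, n = 3 each), a difference of −0.34 ± 0.47 with limma's adjusted p = 0.669 and a 95% interval from −1.48 to 0.79. The sign turned to 0.17 without spleen 1 (adjusted p = 0.715).

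Cd83 had the widest difference of the 8 and the most uneven spleens. Its signal was 35912, 40539 and 47576 intensity units in heart 1, 2 and 4, against 15605, 271.9 and 498.7 in spleen 1, 2 and 4. Every heart exceeded every spleen, but spleen 1 was far brighter than the other spleens. The level averaged 4.73 ± 0.14 in heart and −0.41 ± 3.03 in spleen (SD, n = 3 each), and the spleen SD was at the 99.7th percentile of all tested genes. The difference of 5.14 ± 1.38, or 35.2-fold, missed the threshold, with limma's adjusted p = 0.0533 and a 95% interval from 1.82 to 8.45. Without spleen 1, the array that made the spleens uneven, it was 6.87 with an adjusted p = 0.000484. Leaving out spleen 2 or spleen 4 instead gave 4.07 and 4.48, with limma's adjusted p = 0.117 and 0.0907.

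Havcr2, the gene of TIM-3, had the largest of the 3 differences that passed, and the 95% intervals of the 3 overlap. Its signal was 10007, 8629 and 9622 intensity units in heart 1, 2 and 4, against 903, 1032 and 2359 in spleen 1, 2 and 4. The brightest spleen array, spleen 4, stayed well below the dimmest heart array. The level averaged 2.60 ± 0.11 in heart and −0.39 ± 0.81 in spleen (SD, n = 3 each). The difference was 2.99 ± 0.40, or 7.96-fold, with a 95% interval from 2.04 to 3.95 and limma's adjusted p = 0.00783. It was 2.66 without spleen 1 (adjusted p = 0.0102), and the largest adjusted p on leaving out any single array was 0.0482.

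Cd200r1, which encodes the inhibitory receptor for the CD200 protein of stromal cells and lymphocytes, rose as well. Its signal was 1634, 1242 and 1351 intensity units in heart 1, 2 and 4, against 320.4, 409.6 and 656.3 in spleen 1, 2 and 4. The tissues did not overlap. The level averaged −0.14 ± 0.23 in heart and −1.95 ± 0.60 in spleen (SD, n = 3 each), a difference of 1.80 ± 0.33 (3.49-fold, 95% interval 1.01 to 2.59, limma's adjusted p = 0.019). Without spleen 1 it was 1.50 (adjusted p = 0.0206). Leaving out heart 1, heart 2 or heart 4 gave adjusted p-values of 0.0882, 0.0791 and 0.0734, with differences of 1.67, 1.84 and 1.89.

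**Figure D4:**
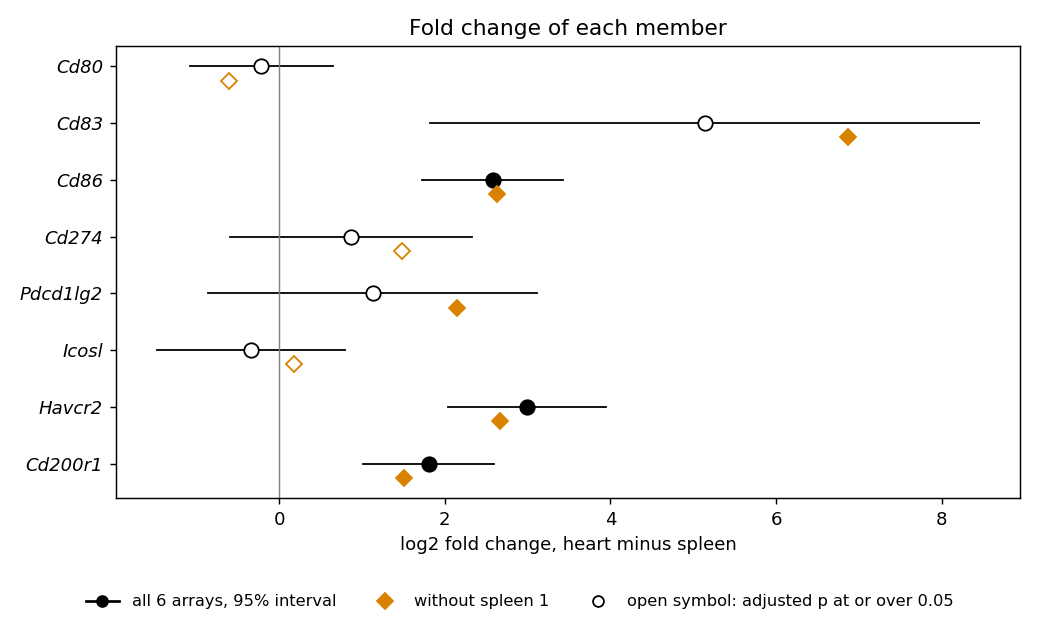
Difference of each of the 8 genes, heart minus spleen (log2), with its 95% interval from all 6 arrays (circles) and without spleen 1 (diamonds); filled symbols have limma's adjusted p under 0.05. Cd86, Havcr2 and Cd200r1 are filled in both fits, while Cd83 and Pdcd1lg2 are filled only without spleen 1, at 6.87 and 2.14.

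The 8 genes fell evenly into those brightest in spleen 1 and those brightest in spleen 4 among the spleen arrays. Spleen 1 was highest for Cd83, Cd274, Pdcd1lg2 and Icosl, as it was for 20.7% of all genes. Spleen 4 was highest for Cd80, Cd86, Havcr2 and Cd200r1, as it was for 48% of all genes. Among the heart arrays the highest was heart 1 for 4 genes, heart 2 for 1 and heart 4 for 3. Over all genes these arrays were highest for 33.7%, 29.5% and 36.8%.

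Slide and tissue were partly entangled. Spleen 1 and spleen 2 were on slide 1, heart 1 and spleen 4 on slide 2, and heart 2 and heart 4 on slide 3, so only slide 2 holds both tissues. In that pair, heart 1 minus spleen 4 was 2.03 for Cd86, 2.22 for Havcr2 and 1.45 for Cd200r1. These have the sign of the full comparison and are smaller. For Cd80, Cd83, Cd274, Pdcd1lg2 and Icosl the same pair gave −0.85, 6.30, 1.51, 2.57 and −0.38. With slide as a fixed block, where the difference rests on that pair alone, 0 of the 8 genes and 85 of all genes passed with limma, and the unadjusted p was 0.0116 for Cd86, 0.00203 for Havcr2 and 0.018 for Cd200r1.

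The titles give heart 4 and spleen 4 a later date than the others. That pair differed by 1.74 for Cd86, 2.00 for Havcr2 and 1.02 for Cd200r1, and by 6.55 for Cd83. For Cd80, Cd274, Pdcd1lg2 and Icosl the later pair gave −0.78, 0.69, 2.52 and −0.09. Within the earlier date, with 2 arrays per tissue, Cd86, Havcr2 and Cd200r1 passed.

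Markers of the sorted cells were present on all arrays. Of 6 genes of the sort and of myeloid cells in general, all were well above background on every array and 1 rose, Cd14, and their summed signal was 447.8 to 512.1 in heart and 168.7 to 354.5 in spleen. The brightest, Lyz2 and Csf1r, differed by 0.14 and 0.70 without passing. The 3 tested Csf1r probes differed by 0.70 to 1.10, and 1 of them rose at the probe level. Of 10 macrophage genes 6 rose, with a median difference of 2.92. Of 10 dendritic cell genes 8 were tested and 1 fell, Cbfa2t3 (−1.08), while 6 had the lower mean in heart and the median was −0.90. Dpp4 (−1.14), Flt3 (−1.09) and Zbtb46 (−0.80) did not pass. Itgax had the largest absolute difference of the list and was higher in heart (1.71), also without passing. The sum, 49.8 to 60.8 in heart and 47.5 to 54.5 in spleen, is carried mostly by Siglech, which differed by 0.28 without passing.

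Markers of other cell types moved in both directions. Of 9 tested neutrophil genes 6 fell, S100a9 among them (−4.81), and their sum was 62.8 to 78.6 in heart and 519.4 to 1106 in spleen, although the sort selected for low Ly6G. Csf3r, the brightest neutrophil gene that did not pass, differed by −0.06. All 4 tested fibroblast genes rose, Col1a1 by 3.91, or 3.73 with its dim spleen array held at the floor, and Col1a2 by 4.26. Col3a1 was well above background on 0 spleen arrays, Dcn on 1 and Col1a1 on 2. These genes passed the filter on dim probes only through heart, the tissue where they are high. The sum of the list was 1.21 to 4.04 in heart and 0.109 to 0.178 in spleen, and Pdgfra and Dpt were well above background on no array.

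In the lymphocyte lists spleen 1 was the highest array for every tested gene except Cd4. That gene was at 2.29, 2.37 and 2.96 in spleen 1, 2 and 4. Of 8 tested B cell genes 0 passed with limma and 3 had an unadjusted p under 0.05, and 7 of the 8 had the lower mean in heart, with a median of −2.70. Cd79b was at −0.71, −0.61 and −0.08 in heart and 5.69, 1.44 and 1.57 in spleen, and Cd22 differed by −0.12. Of 5 tested T and natural killer cell genes 1 fell, Gzma, and 4 had the lower mean in heart, with a median of −3.97. Lck (−3.97), Cd3e (−0.94) and Cd4 (0.16) did not pass, nor did Cd3d, which was dim on all 3 heart arrays and differed by −4.51 with heart held at the floor. Of 5 tested activated dendritic cell genes Socs2 rose, while Il4i1 and Tmem123 differed by −3.41 and 0.14 without passing. The median of that list was −1.19, or −0.30 with Nudt17, dim on every heart array, at its bound. Of 3 tested basophil and mast cell genes Kit fell, Prss34 and Hdc did not pass (−4.51 and −1.30), and the sum was 3.07, 2.69 and 2.64 in heart 1, 2 and 4 and 15.3, 19.6 and 2.3 in spleen 1, 2 and 4, so spleen 2 was highest. The median of these 3 genes was −4.44. Kit and Prss34 were each well above background on only 1 heart array, and differed by −3.45 and −4.38 with the dim arrays held at the floor. The part of these cells in the values of the 8 genes was not tested.

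The wider B7 family had 4 of its 6 other ligands tested, of which 2 rose, with a median difference of 0.89. Cd276, the gene of B7-H3, was at −1.56, −1.15 and −0.92 in heart and −5.34, −5.88 and −4.14 in spleen. Its difference was 3.91 ± 0.46 (limma's adjusted p = 0.00519), or 3.75 with the dim spleen array held at the floor, since it was well above background on 2 of 3 spleen arrays. Btn1a1, a butyrophilin best known from milk fat globules, differed by 1.69 ± 0.32 (adjusted p = 0.0201). Vsir, which encodes VISTA and was the brightest that did not pass, differed by 0.07 (adjusted p = 0.932). Vtcn1 and Btn2a2 were well above background on no array.

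Costimulatory and inhibitory receptors of T cells, among them the receptors of CD80, CD86, PD-L1, PD-L2 and ICOS ligand, were mostly too dim to test in these myeloid sorts. Of 6, 2 were tested, and 1 fell. Btla, an inhibitory receptor of T and B cells that binds HVEM and none of the 8 proteins, was at −2.01, −1.38 and −1.29 in heart and 3.05, 0.49 and 1.17 in spleen, a difference of −3.13 ± 0.65 (limma's adjusted p = 0.0257). Cd28 differed by 0.21 (adjusted p = 0.932), and its spleen arrays ran from 0.45 in spleen 1 to −4.99 in spleen 4. The median of these 2 was −1.46.

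Costimulators of the TNF superfamily and the nectins included some of the widest differences around the B7 ligands. Of 8 TNF superfamily genes 4 were tested and 2 rose, with a median of 0.55. Tnfsf9, which encodes 4-1BB ligand, was at 1.87, 2.15 and 3.09 in heart and −2.42, −2.56 and −1.57 in spleen. The tissues were far apart, and the difference was 4.56 ± 0.41 (limma's adjusted p = 0.00217). Tnfsf14, the gene of LIGHT, rose by 0.82 ± 0.22 (adjusted p = 0.0488), and Cd40, the brightest that did not pass, differed by −0.45 (adjusted p = 0.365).

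Pvr encodes CD155, which activates T and natural killer cells through CD226 and restrains them through TIGIT. It was at 1.93, 2.04 and 1.80 in heart and −2.10, −2.02 and −2.00 in spleen. Replicates were close together in both tissues, and the difference was 3.97 ± 0.16 (limma's adjusted p = 0.000212). Nectin2, a ligand of the same receptors, differed by 0.91 (adjusted p = 0.13), and the other 4 of the 6 nectin checkpoint genes were not tested. The median of the 2 tested was 2.44.

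Among partners and relatives of TIM-3 and CD200R1, 1 tested gene passed, a close relative of CD200R1. Of 6 TIM family genes and TIM-3 ligands 2 were tested and 0 passed with limma (unadjusted p = 0.157 for Lgals9, whose galectin has been described as a TIM-3 ligand, and 0.457 for Hmgb1), with a median of 0.23. Hmgb1, which binds TIM-3 on dendritic cells, differed by −0.32. Of 6 genes of the CD200 and CD47 axis 3 were tested and 1 rose, with a median of 0.62. That gene, Cd200r4, a relative of Cd200r1 that lies next to it, was at −0.55, −1.11 and −0.60 in heart and −2.26, −3.13 and −2.35 in spleen, a difference of 1.83 ± 0.30 (adjusted p = 0.0146). Along an ungapped alignment the Cd200r1 probe was identical to the Cd200r4 probe at 40.5% of 42 bases. Only the probes were compared, and binding of the Cd200r1 probe to Cd200r4 message was not tested. Cd47, the signal that tells macrophages not to engulf a cell, differed by −0.02 (adjusted p = 0.962).

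Among 18 genes of the signals known to induce these ligands, 17 were tested, 4 rose and 1 fell, with a median of 0.38. Hif1a, the oxygen-regulated subunit of HIF-1, was at 3.59, 3.45 and 3.19 in heart and 0.54, 0.22 and 1.05 in spleen, a difference of 2.80 ± 0.26 (limma's adjusted p = 0.0025). Il4ra, the receptor chain for IL-4 and IL-13, rose by 2.00 ± 0.20 (adjusted p = 0.00304). Rel and Stat3 rose by 1.20 and 1.02. Irf4, a transcription factor of dendritic and B cells, was at −2.10, −1.77 and −1.61 in heart and 1.19, −0.52 and 0.99 in spleen, a difference of −2.38 ± 0.46 (adjusted p = 0.022). The interferon gamma receptor gene Ifngr1, the brightest that did not pass, differed by 0.07 (adjusted p = 0.923), and Ifng itself was not tested.

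Of 9 genes that set how long such proteins stay at the cell surface, by removal, shedding or stabilisation, 8 were tested and 1 rose, with a median of 0.23. Marchf8, a ubiquitin ligase that takes CD86 off the surface, was at 1.86, 1.83 and 1.89 in heart and 0.57, 1.02 and 0.91 in spleen. Its difference was 1.02 ± 0.19 (limma's adjusted p = 0.0189). Marchf1, its relative in dendritic and B cells, differed by −0.28 (adjusted p = 0.567) on its brightest probe. Its other tested probe differed by −1.12 and passed at the probe level, so the Marchf1 probes gave different results. Cmtm6, which keeps PD-L1 at the surface, differed by 0.00 (adjusted p = 0.997).

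**Figure D5:**
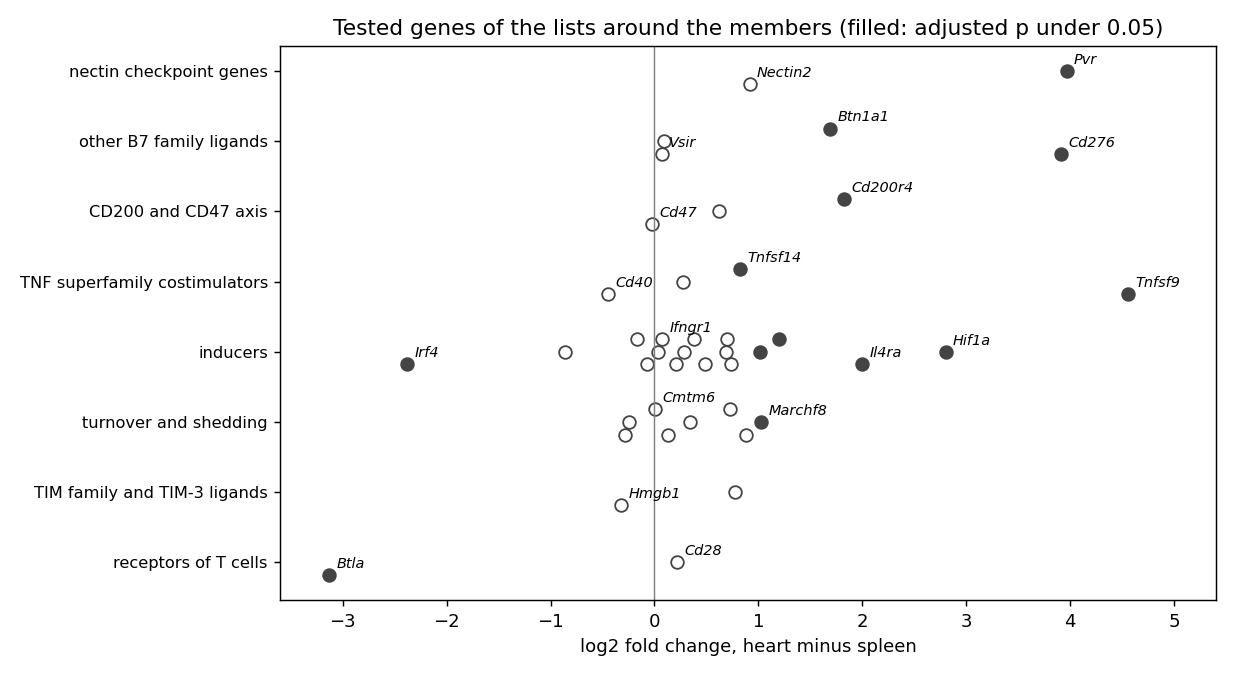
Difference, heart minus spleen (log2), of every tested gene in the 8 lists around the ligands, ordered by list median; filled points have limma's adjusted p under 0.05 and the small vertical offsets carry no value. Tnfsf9 at 4.56, Pvr at 3.97 and Cd276 at 3.91 lie farthest to the right, and Btla at −3.13 lies farthest to the left.

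For each gene that passed, the genes with the most similar pattern over the 6 arrays were found among 14668 measured on all of them, by the root mean square distance between levels after each gene's mean was removed. For Cd86 these were Tgif1, a homeobox repressor, at a distance of 0.132 log2 units, and Map2k3os at 0.146. For Havcr2 they were Adamtsl4 at 0.103 and Tlr5, the flagellin receptor gene, at 0.129. For Cd200r1 they were Luzp1 at 0.0942 and 1700001K19Rik at 0.118. With 2 tissues of 3 arrays, a distance reflects the tissue difference and the order of a few arrays, and the named genes differed between tissues by between 1.73 and 3.03.

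The genes next to the 8 on the chromosome were compared in the same fit, with order taken from RefSeq's GRCm38 table. Cd274 and Pdcd1lg2 are neighbours, and neither passed. The gene beyond Pdcd1lg2, Ric1, rose by 1.31 ± 0.19 (limma's adjusted p = 0.0104), and the one on the other side of Cd274, Plgrkt, differed by 0.55 (adjusted p = 0.0963). Jarid2 beside Cd83 rose by 1.62 (adjusted p = 0.00946), and Med7 beside Havcr2 by 0.92 (adjusted p = 0.0448). Gtpbp8 on the other side of Cd200r1 differed by 0.77 (adjusted p = 0.0779). Adprh and Timmdc1 beside Cd80 (0.72 and 0.41) and Dnmt3l and Gatd3a beside Icosl (0.88 and 0.04) did not pass. Rnf182 beside Cd83, Casr and Ildr1 beside Cd86 and Gm12169 beside Havcr2 were not tested.

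Promoters of 5 of the 8 genes, Havcr2, Cd80, Cd274, Pdcd1lg2 and Icosl, were matched in RefSeq's GRCm38.p6 table, and 250 bases before the start were searched on both strands for 6 motifs. The AP-1 motif TGANTCA was found in Havcr2 and Cd80 and in 6.75% of all 32851 promoters, and the hypoxia motif ACGTG in Havcr2 and in 16.6% of all. The PU.1 motif GAGGAA was found in Havcr2 and Pdcd1lg2 and in 23.3% of all. The GAS motif TTCNNNGAA, the interferon-stimulated response element and the NF-kappaB motif, found in 7.02%, 2.98% and 1.41% of all, had 0 matches in the 5. The promoters of Havcr2 at chr11:46454681-46454930 and of Cd80 at chr16:38458683-38458932 (plus strand, GRCm38.p6) are printed because they share the AP-1 letters, with capitals at matches to AP-1 (both), ACGTG and GAGGAA (Havcr2):
Havcr2: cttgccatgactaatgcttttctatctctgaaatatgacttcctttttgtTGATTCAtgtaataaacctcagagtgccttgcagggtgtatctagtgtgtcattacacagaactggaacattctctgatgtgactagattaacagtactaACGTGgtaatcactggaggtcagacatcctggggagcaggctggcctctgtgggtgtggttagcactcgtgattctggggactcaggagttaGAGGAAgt
Cd80: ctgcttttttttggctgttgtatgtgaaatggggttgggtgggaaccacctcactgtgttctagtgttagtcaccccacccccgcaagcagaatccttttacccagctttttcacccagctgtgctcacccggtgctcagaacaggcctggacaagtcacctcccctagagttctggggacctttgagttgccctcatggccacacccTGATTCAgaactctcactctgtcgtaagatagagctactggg
The AP-1 match begins 200 bases before the start in Havcr2 and 42 bases before it in Cd80. A match is a string of letters in this window, and binding was not measured.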

How the data were processed

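Each deposited scanner file lists a linear intensity for every spot, which the authors read out using version 10.7.3.1 of Agilent Feature Extraction (submitters' processing notes). That processed signal is background-corrected within the array but not scaled between arrays, per the file headers. The deposited table of the authors' own log2 values served as an alternative. Of 39429 probes, 21801 were tested: those well above background on all 3 arrays of a tissue, with outlier spots left out and spots of a probe averaged. Signals were taken as log2 minus the array's 75th percentile and fitted by lmFit and eBayes (two-sided) of limma 3.58.1, run under R 4.3.3 with version 1.17.8 of data.table. A check on simulated data gave both groups the same spread, so it did not cover the larger spread of the spleen arrays. Probe positions are in mm9. RefSeq's GRCm38 table named 26412 probes by accession. Alternatives changed scaling, background, filter, probe choice, variance model, blocks and arrays. Figures used matplotlib 3.10.9 in Python 3.11.15 with pandas 2.3.3. The 8 genes and all lists were chosen with earlier results of these data known. Named besides the 8 are, per list, the 3 largest changes and the brightest gene that did not pass. Per marker list the 2 brightest are named, for each of the 8 that passed the 2 nearest patterns, and chromosomal neighbours. Others named were chosen after their values were seen. These were Cd14, Cd3d, Lck, Nudt17, Dpp4, Flt3, Zbtb46, Itgax, Ccr7, Gzma, Kit, Socs2, Rel, Stat3, Lgals9, Marchf1 and dim markers. Replicate samples are separate organs per the labels.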

Additional observations from a re-analysis of the deposited data

How the results depend on the processing

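Besides the analysis reported, 22 settings were run, 2 of them (the second probe of Cd80 or of Pdcd1lg2) chosen after seeing the data. None of them gave a fall, and the number of the 8 genes that rose was 3 or 4 in all settings with 6 arrays but 1 and within the earlier date. In those settings with 6 arrays, between 1449 (of 28298, with no filter on dim probes) and 2522 genes (of 16365) were called in all. Within the earlier date 1765 were. With slide as a fixed block it was 0, where 1 pair carries the difference and 85 genes pass in all. Leaving out a single array gave between 1 and 5, with 1 without heart 1 or heart 2 (444 and 477 genes called in all, against 2521). It was 5 without spleen 1 (2684 genes called in all), where Cd83 and Pdcd1lg2 joined. No gene of the 8 fell with any single array left out. Cd86 passed in 19, Havcr2 in 21, Cd200r1 in 18, Cd83 in 6, Cd80 in 2, Pdcd1lg2 in 1 and Cd274 and Icosl in 0 of the 22. Cd83 passed with median scaling (5.26), normexp background (4.93), array weights, a robust prior, only probes above background on all arrays, or no spleen 1. Cd80 changed sign to 1.69 as the mean of its probes, 3.61 by its second probe, 0.0626 within the earlier date and, when single arrays were left out, ranged from −0.61 (without spleen 1) to 0.0915 (without spleen 4). Icosl ranged from −0.80 (without spleen 2) to 0.17 (without spleen 1) in the same way. The cause was not tested. Median scaling moved the median of all genes to 0.22, against 0.10.

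Deviations of same-numbered samples from their tissue means correlated at −0.05, 0.04 and 0.01, and those of differently numbered samples at −0.07 to 0.05. With means of 3 arrays from different tissues, these values cannot decide whether such samples share an animal. With the replicate number as a block 3 of the 8 genes rose and 1587 genes passed in all. Counts of all genes were 1449 without a filter on dim probes. With 3 arrays per tissue, uneven spleens limit what can pass: Cd83 missed at a 35.2-fold difference. The dim second Pdcd1lg2 probe limits its value in spleen 4. Random slide and date blocks left 3 genes risen.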
